A study of Saccharomyces cerevisiae with 15 samples.

Results

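The comparison was between budding yeast exposed for 1 h to 6 µM ytterbium (Yb, a heavy rare earth element) and unexposed yeast. It used 3 Yb EC10 libraries, numbered 7, 8 and 9 in the deposited table, and 3 control libraries, numbered 1, 2 and 3. A gene entered when its mean over these 6 libraries reached 10 normalized counts, which 5559 of the 6600 identifiers in the table did, and 205 identifiers had no read in any of the 6. A normalized count is the number of reads of a gene divided by a size factor of its library.

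All 15 libraries of the series came from Saccharomyces cerevisiae BY4741, a haploid laboratory strain of mating type a, called wild type in the labels. Cells grew in a liquid yeast nitrogen base medium with β-glycerophosphate as a phosphate ester. Besides control and Yb EC10, the groups were Yb EC50 (8 µM), La EC10 (50 µM lanthanum, a light rare earth element) and La EC50 (160 µM), with 3 libraries each and 1 h of exposure. EC10 and EC50 are the doses that the labels tie to effects of 10 and 50 percent, and the labels do not name the effect. Nothing in them tells separate cultures from repeats of 1 culture, so p-values rest on a spread between samples that may be technical.

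Rare earth ions are trivalent and bind phosphate and other oxygen groups strongly, and they resemble calcium in size. In yeast, phosphatidic acid builds up when inositol is short and holds the repressor Opi1 outside the nucleus. The activators Ino2 and Ino4 then switch on INO1 and other phospholipid genes through an upstream element called UASINO. Damage to the cell wall activates the kinase Slt2 and its transcription factor Rlm1. The general stress factors Msn2 and Msn4 act through the stress response element (STRE), while growth-linked genes for ribosome assembly often carry the PAC element and fall when cells slow down.

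The control libraries held 5629666 to 6478993 recovered reads and the Yb EC10 libraries 6122514 to 6497308. The Yb EC10 libraries differed more among themselves than the controls did: a chi-square of reads over genes, divided by its degrees of freedom, was 13.7 to 28.0 between pairs of them and 7.38 to 10.9 between pairs of controls. On the leading principal component of all 15 libraries (46.0% of the variance), controls lay at -18.1 to -14.0, and Yb EC10 libraries 7, 8 and 9 at 15.6, 2.26 and 10.5. Library 8 thus lay nearest to control. Of the genes that BY4741 lacks, URA3 and MET17 had no read in the 6 libraries, with 0 reads each, and LEU2 had 1 read, in library 7. HIS3, which this strain lacks only in part, was read at 470.5 to 507 in control and 349.9 to 452 after Yb. The summed level of 4 α-type genes was 288 to 316 in control and 329 to 340.2 after Yb, against 16908 to 19217 and 13228 to 14980 for 7 a-type genes. Genes with coding sequences of up to 300 bases (199 genes) deviated from their own mean by a median log2 of 0.13, -0.18 and -0.06 in the controls and -0.04, 0.17 and 0.19 in libraries 7, 8 and 9.

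After Yb EC10, 1623 of 5559 genes (29.2%) were called, at a Benjamini-Hochberg adjusted p under 0.05 in limma: 842 higher (15.1%) and 781 lower (14%). Log2 changes are differences of log2(normalized count + 1), given ± SE of the fit. In bulk RNA, fewer cells of a kind and less RNA per cell cannot be told apart. At least a 2-fold change was found for 145 higher genes (2.61%) and for 1 lower gene (0.018%). Scaling every library to an equal total gave 1057 higher and 454 lower genes, so that 70.0% of the calls were rises in place of 51.9%, and the median log2 change of all genes moved from 0.0012 to 0.07. Quantile normalization gave 681 higher and 850 lower genes, 44.5% of the calls being rises, and a median of -0.04. The number called was 986 without Yb EC10 library 9 and 1064 without control library 2.

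**Figure D1:**
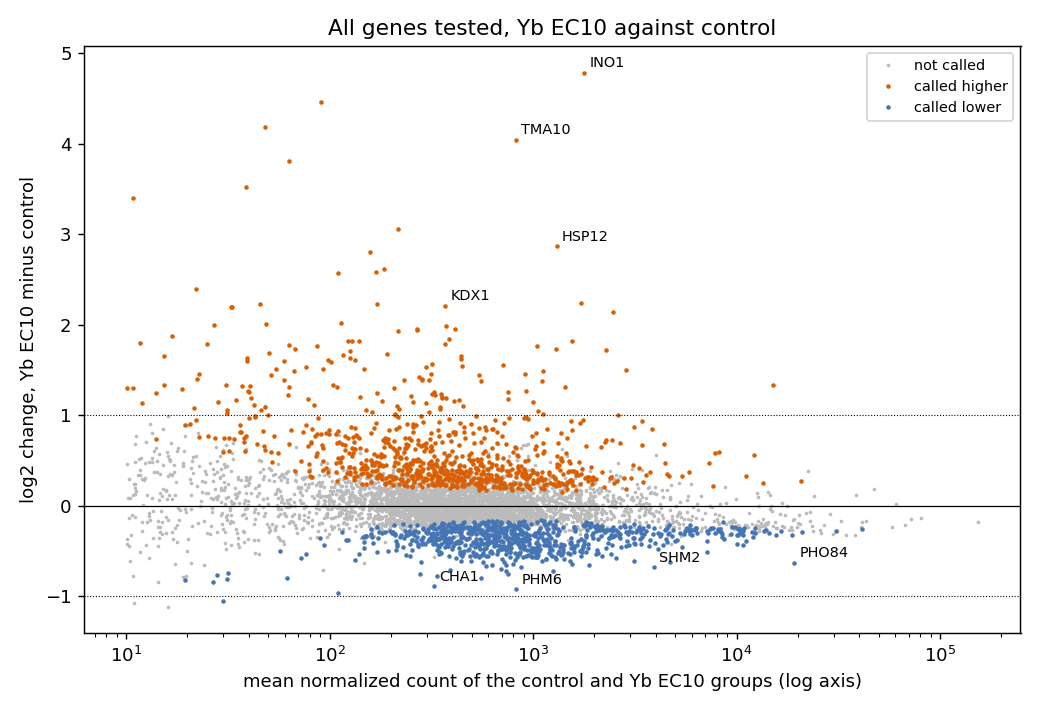
The log2 change from control to Yb EC10 (vertical axis) against the mean normalized count of the 2 groups (horizontal log axis), 1 point for each of 5559 genes, with called genes coloured and dotted lines at a 2-fold change. The called rises reach 4.78 (INO1), while the called falls, 781 genes, lie between 0 and -1.06.

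INO1 (YJL153C, chromosome X, 134332 to 135933, minus strand, 1 coding exon), the synthase of inositol phosphate and the first step from glucose to inositol, showed the largest rise. Its normalized counts were 125, 113 and 127 in the controls and 4197, 2874 and 3206 in Yb EC10 libraries 7, 8 and 9, with no overlap. The group means differed 28.1-fold and the log2 change was 4.78 ± 0.11 (SE, adjusted p = 1.26e-13, limma). Library 7 was the highest and library 8 the lowest of the exposed libraries, and each lay far above any control.

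Among 20 targets of Ino2 and Ino4, 7 were called higher (35.0%, against 15.1% of all genes) and 2 lower (10%, against 14%), with a median log2 change of 0.14. The number lower was 1 under both other scalings and without control library 2, control library 3 or Yb EC10 library 7. OPI3, the methyltransferase that completes phosphatidylcholine, went from 3512, 3354 and 3267 to 6020.4, 4856 and 5391 (log2 change 0.68 ± 0.08, adjusted p = 3.45e-05). ITR1, the main inositol transporter, went from 6557, 6878 and 6188 to 10938, 8804 and 9904 (0.59 ± 0.09, adjusted p = 0.000189). In both genes every Yb library lay above every control, with library 8 lowest. The phosphatidylserine synthase gene CHO1 and the phosphatidylethanolamine methyltransferase gene CHO2, chosen after their values were seen, rose by 0.45 ± 0.09 and 0.34 ± 0.08. URA7, the CTP synthase that supplies CTP to phospholipid synthesis, fell from 1832, 2053 and 2225 to 1236, 1648 and 1280.4 (-0.56 ± 0.13, adjusted p = 0.00387). The activator gene INO2 and the repressor gene OPI1 were not called, at -0.15 ± 0.08 and 0.08 ± 0.07 (adjusted p = 0.167 and 0.392). Apart from INO1, the largest change among the 20 targets was that of OPI3.

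The windows 300 to 51 bases before the start codons of INO1, OPI3 and ITR1, the 3 highest of these genes, are shown because each holds the UASINO core CATGTG once on each strand (read on the other strand it is CACATG). Capitals mark it. They are from RefSeq R64, all on the minus strand, at chrX:135984-136233, chrX:572986-573235 and chrIV:1445518-1445767.
INO1: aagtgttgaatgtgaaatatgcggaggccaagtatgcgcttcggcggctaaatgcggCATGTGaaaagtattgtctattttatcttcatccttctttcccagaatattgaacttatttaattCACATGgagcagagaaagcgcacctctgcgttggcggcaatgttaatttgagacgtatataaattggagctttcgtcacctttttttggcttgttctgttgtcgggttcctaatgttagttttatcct
OPI3: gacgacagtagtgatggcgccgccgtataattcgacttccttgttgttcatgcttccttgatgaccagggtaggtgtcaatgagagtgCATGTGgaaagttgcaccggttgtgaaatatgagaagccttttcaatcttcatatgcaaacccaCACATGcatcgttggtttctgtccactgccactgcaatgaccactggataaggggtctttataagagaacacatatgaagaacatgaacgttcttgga
ITR1: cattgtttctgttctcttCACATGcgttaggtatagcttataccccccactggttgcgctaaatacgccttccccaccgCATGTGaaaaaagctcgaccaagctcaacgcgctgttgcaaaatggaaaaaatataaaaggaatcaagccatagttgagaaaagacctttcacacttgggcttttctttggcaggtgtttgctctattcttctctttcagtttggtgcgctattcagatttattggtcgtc
The matches begin 243 and 178 bases before the start codon of INO1, 212 and 148 before that of OPI3 and 282 and 221 before that of ITR1. The core was in 6.39% of the 5481 windows of tested genes, in 7.89% of those of genes called higher and in 6.43% of those of genes called lower.

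The other large rises included genes known from stress, stationary phase and growth with little glucose. Of 123 rises that met the naming rule (called, at least 2-fold, at least 50 normalized counts after Yb, no overlap), the largest are given here, with the exception of 1. CPP3 (YDR034W-B, chromosome IV, 521314 to 521469), a gene for a predicted small cysteine-rich membrane protein, had 11.4, 4.26 and 6.12 in the controls and 207, 132 and 180.0 after Yb (log2 change 4.46 ± 0.28, adjusted p = 3.34e-08). Its control values rest on 11, 4 and 5 reads, those of RGI2 on 4, 5 and 2 and those of YPT53 on 6, 6 and 3, so their fold changes are less precise than that of INO1. RGI2 (chromosome IX, 247902 to 248396), needed for respiratory growth, went from 4.15, 5.32 and 2.45 to 81.0, 59.0 and 135 (4.18 ± 0.56, adjusted p = 6.19e-05). YPT53, a Rab5-type GTPase of endosomes, went from 6.22, 6.39 and 3.67 to 91.5, 66.5 and 58.9 (3.52 ± 0.33, adjusted p = 2.37e-06). In all 3 genes the groups were far apart, the lowest exposed value being 58.9 and the highest control value 11.4.

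TMA10 (chromosome XII, 783127 to 783387), a ribosome-associated protein related to STF2, had 142, 70.2 and 74.7 in the controls and 1606, 1124 and 1908 after Yb (log2 change 4.04 ± 0.27, adjusted p = 4.04e-08). HSP12 (chromosome VI, 107256 to 107585), a small membrane-protecting protein that is a classic target of Msn2 and Msn4, had 469.8, 224 and 238 and 3029, 1222 and 2637 (2.87 ± 0.35, adjusted p = 3.12e-05). HXT5, the hexose transporter of slowly growing cells, had 60.2, 27.7 and 29.4 and 402, 166 and 266 (2.80 ± 0.38, adjusted p = 7.65e-05). These 3 genes share a pattern: control library 1 was highest of the controls and Yb EC10 library 8 lowest of the exposed, yet the groups did not overlap. RTC3 rose by 3.06 ± 0.20, the butanediol dehydrogenase-like gene BDH2 by 2.61 ± 0.25, the transaldolase gene NQM1 by 2.58 ± 0.27, the stationary phase gene SPG4 by 2.58 ± 0.46, the ATP synthase-stabilizing STF2 by 2.24 ± 0.30, the repressor gene XBP1 by 2.23 ± 0.26 and MPC3, a subunit of the mitochondrial pyruvate carrier, by 2.22 ± 0.26 (SE, adjusted p between 4.00e-08 and 0.000816). STF2 and MPC3 differed from the other 5 in that library 7, not library 8, was the lowest exposed library. Several of these genes are short, TMA10, STF2, HSP12, RTC3 and SPG4 having coding sequences of 261, 255, 330, 336 and 348 bases; the part of the length-related deviations in their changes was not tested.

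**Figure D2:**
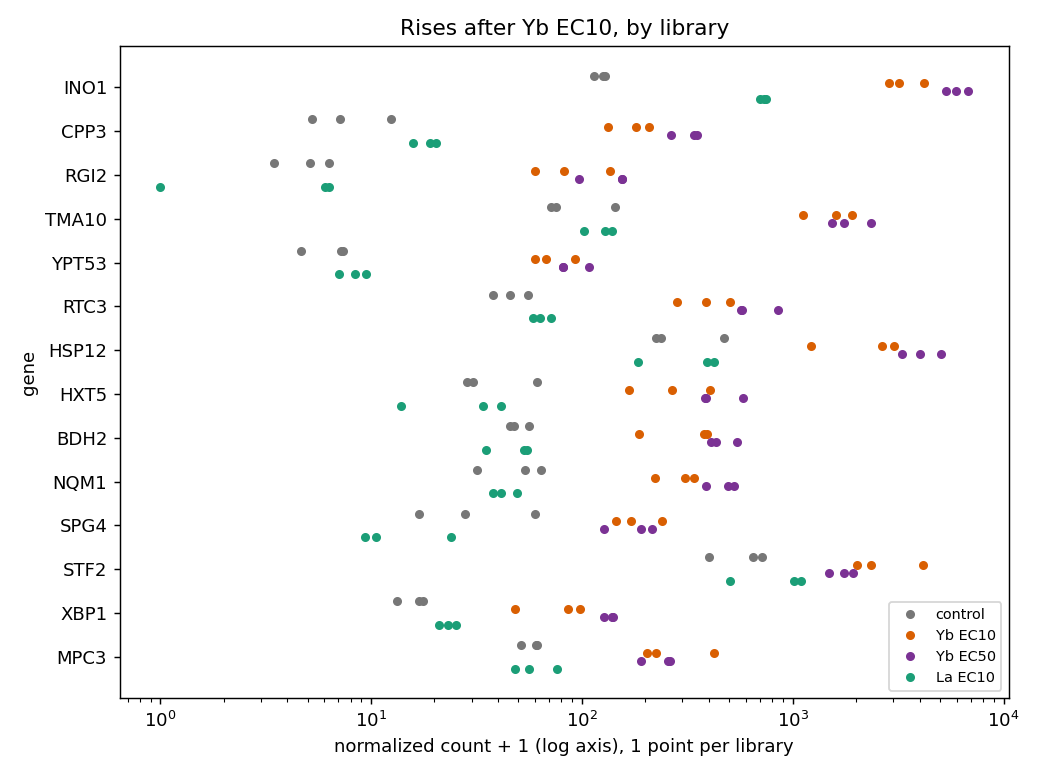
Normalized count plus 1 on a log axis, 1 point per library, for the 14 reported genes of the 15 largest rises that met the naming rule, in order of log2 change, with control, Yb EC10, Yb EC50 and La EC10 libraries in 4 colours. In every row the 3 Yb EC10 points lie to the right of the 3 control points, and the La EC10 points lie to their left; for INO1 they stand at 700.3 to 743, between control and Yb EC10.

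The list of 38 general stress genes had 35 called higher and none lower (92.1%, against 15.1% of all genes tested), with a median log2 change of 1.41 and a range of 0.19 to 4.18. By library the median over the list was 1.79, 0.86 and 1.58 in libraries 7, 8 and 9. Carbohydrate storage genes were among those called; the genes of this paragraph outside the naming rule were chosen after their values were seen. For trehalose, the synthase subunit gene TPS1 rose by 0.69 ± 0.10, the phosphatase gene TPS2 by 1.01 ± 0.11 and the regulatory subunit gene TSL1 by 1.38 ± 0.19, and the trehalase gene NTH1 by 0.53 ± 0.11. For glycogen, the synthase gene GSY1 went from 134 to 197 to 427 to 859 (1.95 ± 0.23), the phosphorylase gene GPH1 from 122 to 163 to 363 to 845 (1.98 ± 0.26) and the branching enzyme gene GLC3 from 128 to 197 to 319.8 to 579.6 (1.56 ± 0.22). Genes of synthesis and of breakdown thus rose together (adjusted p between 1.54e-05 and 0.00202, limma). The hexokinase gene HXK1 went from 1013, 772 and 832 to 5399, 2434 and 4276 (2.14 ± 0.22, adjusted p = 6.34e-06). MSN4 itself was not called (0.19 ± 0.11, adjusted p = 0.216), nor was the small heat shock protein gene HSP26 (0.37 ± 0.35), whose library 8 value of 297 lay below the controls.

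HSP12 and CPP3 are shown as the windows of rises with the STRE, AGGGG on either strand (CCCCT when read on the other), in capitals. Both are on the plus strand of RefSeq R64, at chrVI:106956-107205 and chrIV:521014-521263.
HSP12: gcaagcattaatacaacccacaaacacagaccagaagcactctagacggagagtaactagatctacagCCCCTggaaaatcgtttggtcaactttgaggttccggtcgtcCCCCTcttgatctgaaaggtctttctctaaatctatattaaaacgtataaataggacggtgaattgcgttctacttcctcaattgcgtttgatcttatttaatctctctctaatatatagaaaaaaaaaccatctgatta
CPP3: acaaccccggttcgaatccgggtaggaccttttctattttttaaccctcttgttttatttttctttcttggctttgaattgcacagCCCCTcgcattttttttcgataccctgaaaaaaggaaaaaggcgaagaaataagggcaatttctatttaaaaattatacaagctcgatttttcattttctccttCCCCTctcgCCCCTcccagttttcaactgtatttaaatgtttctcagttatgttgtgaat
The element begins 232 and 190 bases before the start codon of HSP12, and 214, 110 and 101 before that of CPP3. It was in 52.8% of the windows of genes called and at least 2-fold higher (76 of 144), in 43.5% of those called higher, in 9.0% of those called lower and in 19.7% of all.

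Of carbon metabolism genes, 16 of hexose transport and sensing were tested, and 4 were called higher and 4 lower (25.0% each, against 15.1% and 14% of all genes). HXT7 went from 81.9, 66.0 and 42.9 to 282, 115 and 211 (1.61 ± 0.30) and HXT4, a transporter for lower glucose, from 189.8, 203 and 202 to 513, 318 and 415 (1.03 ± 0.15), whereas HXT1, the transporter of high glucose, fell from 1653, 2102 and 1776 to 1314, 1149 and 1154 (-0.61 ± 0.09, adjusted p = 0.000123). HXT7 shares nearly its whole sequence with HXT6, so its own level is uncertain. Of 41 respiratory chain and ATP synthase genes, 18 were called higher and none lower (median 0.24). NDE2, an external NADH dehydrogenase, rose by 1.99 ± 0.40, the cytochrome c isoform 2 gene CYC7 by 1.63 ± 0.32, the lactate dehydrogenase gene CYB2 by 0.97 ± 0.20 and the subunit gene COX5B by 0.91 ± 0.17 (adjusted p between 0.00113 and 0.00271). Of 24 genes of the citrate and glyoxylate cycles and gluconeogenesis, 9 were higher and 3 lower, and the count of rises dropped to 4 without control library 2, Yb EC10 library 7 or Yb EC10 library 9. The succinyl-CoA ligase gene LSC2 rose by 0.55 ± 0.08 and the malic enzyme gene MAE1 fell from 659, 707 and 734 to 352, 488 and 373 (-0.80 ± 0.12, adjusted p = 0.000144). Beyond these lists, the peroxisomal β-oxidation genes POX1 and POT1, chosen after their values were seen, went from 14.7 to 23.4 to 65.5 to 92.1 and from 3.67 to 8.52 to 30.0 to 46.7, while the peroxisomal catalase gene CTA1 was not called (0.13 ± 0.16).

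Cell wall genes formed another large group of rises. Of 31 genes of the cell wall integrity list, 28 were called higher and none lower (90.3%, against 15.1% of all genes), with a median log2 change of 0.97. KDX1 (YKL161C, chromosome XI, 149386 to 150687), a pseudokinase related to Slt2, had 136, 145 and 111 in the controls and 590.1, 587 and 638 after Yb (2.21 ± 0.11, adjusted p = 1.27e-09). The 3 exposed libraries lay close together (SD 28.3), and library 8 was not set apart. SRL3, a G1 regulator, rose by 1.84 ± 0.09, the cell-surface protease gene YPS6 by 1.83 ± 0.18 and the wall protein gene NCW2 by 1.82 ± 0.08 (adjusted p between 9.40e-10 and 4.45e-06).

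The following members, outside the naming rule, were chosen after their values were seen. The kinase gene SLT2 went from 409, 494 and 432 to 1126, 1054 and 1010.4 (1.26 ± 0.09) and the transcription factor gene RLM1 from 269.7, 297 and 337 to 542, 526 and 518 (0.81 ± 0.09). Among wall proteins, SED1 went from 7930.3, 8433 and 9535 to 21928, 21112 and 22006 (1.33 ± 0.10), CWP1 rose by 1.50 ± 0.10, PIR3 by 1.82 ± 0.19 and the membrane-wall protein gene PUN1 by 1.74 ± 0.09. PIR1, of the same family as PIR3, was not called, with 6248 to 8445 in control and 6681 to 6895 after Yb (-0.08 ± 0.11, adjusted p = 0.636). The glucan synthase gene FKS1 rose by 0.37 ± 0.08, the chitin synthase gene CHS3 by 0.35 ± 0.05 and GFA1, the first step of chitin precursor synthesis, by 0.72 ± 0.07 (adjusted p between 4.23e-06 and 0.00236). The median over the 31 genes was 1.12, 0.83 and 0.96 in libraries 7, 8 and 9, a narrower spread than over the stress list. A form of the Rlm1 site, CTA and TAG set 4 bases apart, the same on both strands, was in 6.33% of windows of genes called higher, 2.96% of those called lower and 4.49% of all. Of the cell wall genes named in this paragraph and the one before it, only SRL3 and PIR3 held it.

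Of 17 calcineurin and Crz1 targets, which follow calcium signals, 10 were called higher (58.8%, against 15.1% of all genes). None was called lower, against 14% of all genes, and the median was 0.27. GSC2, the stress-induced glucan synthase subunit, had 530.0, 544 and 538 in the controls and 1512, 1188 and 1214 after Yb (1.27 ± 0.09, adjusted p = 9.82e-08). The sodium pump gene ENA1 went from 202, 206 and 175 to 591, 406 and 395 (1.23 ± 0.14), uncertain because its neighbours in the ENA cluster are nearly identical, RCN2, a calcineurin regulator, rose by 1.09 ± 0.10 and the yapsin gene YPS1 by 0.97 ± 0.08. The 4 genes were highest in library 7. Outside the naming rule, the kinase gene CMK2 rose by 0.95 ± 0.09, the vacuolar calcium pump gene PMC1 by 0.70 ± 0.10 and the Golgi pump gene PMR1 by 0.27 ± 0.07, whereas CRZ1 was not called (0.06 ± 0.08, adjusted p = 0.614). GSC2 and YPS1 are also known to respond to wall stress. The pattern GAGGCTG, a form of the Crz1 site, was in 3.47% of windows of genes at least 2-fold higher (5 of 144), on either strand. Its share was 2.39% for genes called higher, 0.643% for those called lower and 1.44% for all. Of the genes named in this paragraph, only RCN2 held it.

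Counts for other stress systems are read against the 15.1% of all genes called higher and 14% called lower. Of 18 unfolded protein response genes, 10 were called higher and none lower (median 0.30), but the count was 3 without control library 2, control library 3 or Yb EC10 library 9 and 4 without Yb EC10 library 7; the disulfide isomerase gene MPD1 rose by 0.51 ± 0.13 and the transcription factor gene HAC1 by 0.41 ± 0.14, with overlapping ranges for HAC1. Of 15 osmotic (Hog1) genes, 6 were higher and 1 lower, among them PAI3 (1.39 ± 0.18), the reductase gene GRE2 (0.99 ± 0.12) and GCY1 (0.85 ± 0.13). Of 25 Yap1 and oxidative stress genes, 6 were higher and 2 lower, among them the glutathione transferase gene GTT1 (0.85 ± 0.10), the catalase gene CTT1 (0.84 ± 0.20) and the mitochondrial peroxiredoxin gene PRX1 (0.75 ± 0.11). The thioredoxin gene TRX2 was not called (0.39 ± 0.25, adjusted p = 0.249). Of 26 heat shock (Hsf1) genes, 4 were higher and 2 lower, shares of 15.4% and 7.69% that are near or under the background. With equal totals 7 were higher, and the 2 falls became 0 under both other scalings and without control library 2 or 3 or Yb EC10 library 7 or 9, and 4 without control library 1. HSP42 rose by 1.17 ± 0.16 and HSP104 by 0.34 ± 0.10, a call lost with the 2 groups alone (adjusted p = 0.0564) and without control library 2 (0.0891) or Yb EC10 library 9 (0.0937), while SSA4, an inducible Hsp70, was not called (-0.18 ± 0.13).

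Of 14 Pdr1 and Pdr3 targets, 4 were called higher (28.6%, against 15.1% of all genes) and 1 lower (7.14%, against 14%). With equal totals 7 were higher, and the 1 fall became 0 under both other scalings and without any 1 library but control library 3. RTA1, of a lipid-translocating family, went from 12.4, 12.8 and 8.57 to 54.3, 50.4 and 58.9 (2.20 ± 0.32), the acyltransferase gene ICT1 rose by 0.59 ± 0.08, the sphingolipid gene IPT1 by 0.56 ± 0.08 and the transporter gene PDR10 by 0.23 ± 0.08. Of 19 genes in the Rim101 and ESCRT list, 4 were higher (21.1%, near the 15.1% of all genes) and none lower. Among the 4 was YPT53, which the list includes as an endosomal GTPase gene. The ESCRT-II gene VPS36 rose by 0.61 ± 0.09 and the pH sensor gene RIM21 by 0.50 ± 0.06. Among 11 meiotic genes tested, 4 were higher and none lower (median 0.29), but 2 were higher and 1 lower after quantile normalization (median 0.07). The kinase gene IME2 went from 64.3, 80.9 and 71.0 to 144, 116 and 117 (0.79 ± 0.11), HOP1 rose by 0.77 ± 0.18, SPO11 by 0.61 ± 0.15 (0.33 with an adjusted p of 0.191 after quantile normalization) and ZIP1 by 0.21 ± 0.07, whereas the regulators IME1 and NDT80 were not called (-0.22 ± 0.10 and 0.29 ± 0.28). Metal uptake genes showed few calls. Of 21 iron uptake (Aft1) genes none were higher and 1 lower, the permease gene FTR1 (-0.44 ± 0.13, adjusted p = 0.0204), and of 16 zinc and copper genes none were higher and 2 lower, IZH1 (-0.55 ± 0.12) and the vacuolar zinc transporter gene ZRC1 (-0.24 ± 0.07). In the iron list library 8 stood apart, with a median of -0.69 against 0.09 and 0.06 in libraries 7 and 9. In that list 3 members were called lower without library 7 and none without library 8. Library 8 also stood apart in the zinc and copper list, at -0.27 against 0.06 and 0.05. That list's median of -0.14 was 0.06 without library 8. With equal totals 1 of its members was higher and 1 lower, and ZRC1 was not called (adjusted p = 0.117, limma). Of 26 ergosterol genes, 1 was higher (ERG28, 0.40 ± 0.09) and 3 lower, among them ERG3 (-0.35 ± 0.07); the list's median, -0.05, was 0.02 with equal totals.

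**Figure D3:**
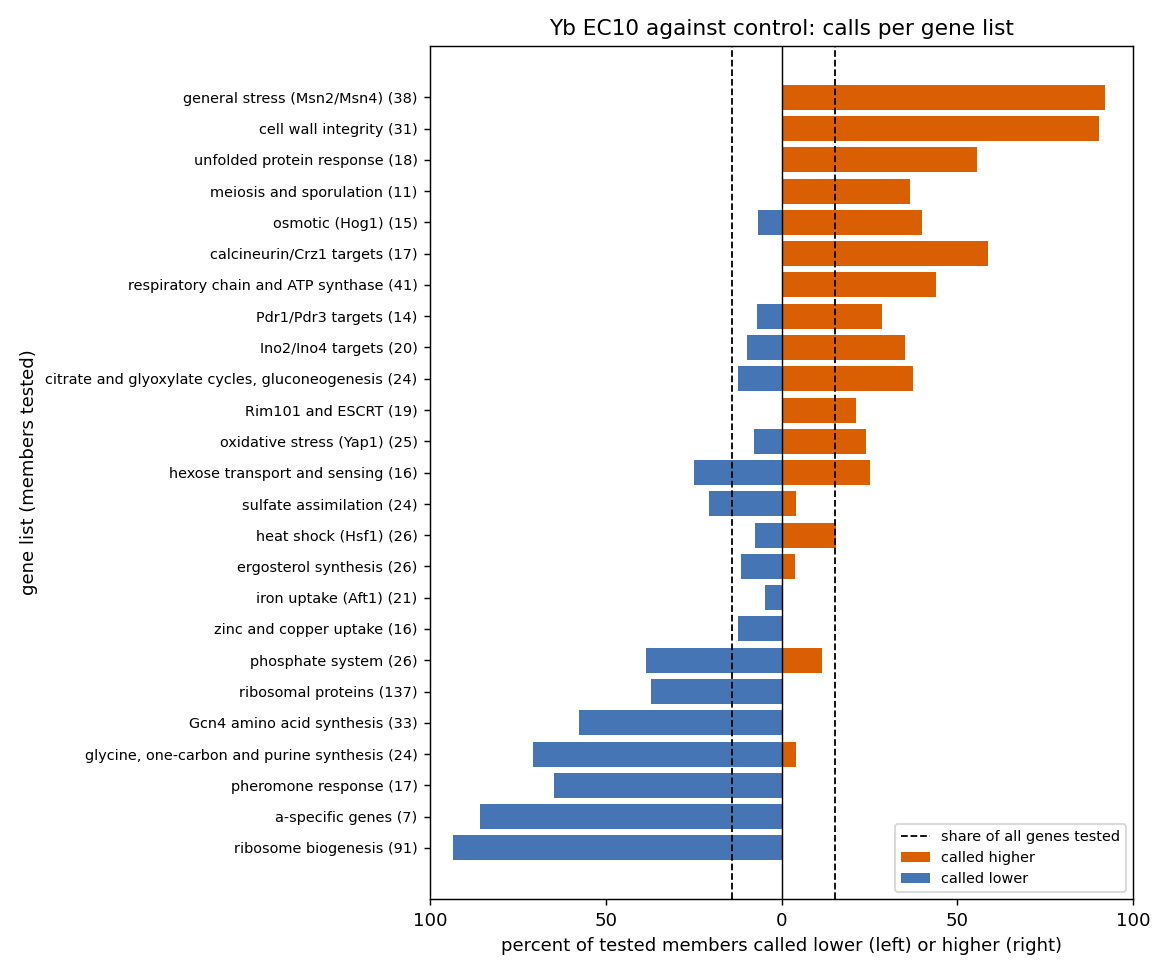
Percent of the tested members of 25 gene lists called higher (right) or lower (left) after Yb EC10, with the number tested in parentheses and dashed lines at the shares over all genes, 15.1% and 14%; lists are in order of their median log2 change. General stress (92.1% higher) and cell wall integrity (90.3% higher) stand at one end and ribosome biogenesis (93.4% lower) at the other.

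Among the falls, ribosome biogenesis genes moved together: of 91 genes, 85 were called lower and none higher (93.4%, against 14% of all genes), with a median log2 change of -0.47 and no change beyond -0.66. The median was -0.54, -0.27 and -0.57 in libraries 7, 8 and 9, and 56 were called lower without Yb EC10 library 9. NSR1, a nucleolar protein of pre-rRNA processing, had 4949, 5797 and 6320.0 in the controls and 3749, 4261 and 3132 after Yb (-0.62 ± 0.15, adjusted p = 0.00765). The RNA helicase gene DBP2 changed by -0.66 ± 0.17, SSF1, of large-subunit assembly, by -0.60 ± 0.13 and ENP1, of small-subunit assembly, by -0.59 ± 0.12 (adjusted p between 0.0026 and 0.00837). In all 4 genes control library 1 was the lowest control and the groups did not overlap. Other falls near this size were those of the helicase gene FAL1 (-0.75 ± 0.16) and the pre-rRNA processing gene FAF1 (-0.72 ± 0.15), chosen after their values were seen.

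The windows of NSR1 and SSF1 are shown for the PAC element GATGAG, here on the opposite strand as CTCATC, in capitals (in SSF1 the 2 matches overlap by 1 base). They lie at chrVII:807707-807956 on the minus strand and chrVIII:229035-229284 on the plus strand of RefSeq R64.
NSR1: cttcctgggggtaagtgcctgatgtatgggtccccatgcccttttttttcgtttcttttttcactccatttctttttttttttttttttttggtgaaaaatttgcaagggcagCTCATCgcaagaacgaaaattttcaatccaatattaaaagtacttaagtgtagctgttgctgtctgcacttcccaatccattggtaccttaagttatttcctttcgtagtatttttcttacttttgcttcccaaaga
SSF1: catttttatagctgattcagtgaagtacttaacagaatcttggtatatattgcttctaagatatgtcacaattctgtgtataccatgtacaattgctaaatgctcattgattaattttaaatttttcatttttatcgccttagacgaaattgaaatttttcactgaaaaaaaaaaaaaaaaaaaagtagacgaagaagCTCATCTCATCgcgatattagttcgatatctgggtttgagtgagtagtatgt
The matches begin 187 bases before the start codon of NSR1, and 102 and 97 before that of SSF1. The element was in 41.9% of windows of genes called lower (326 of 778), 9.68% of those called higher and 17.4% of all.

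**Figure D4:**
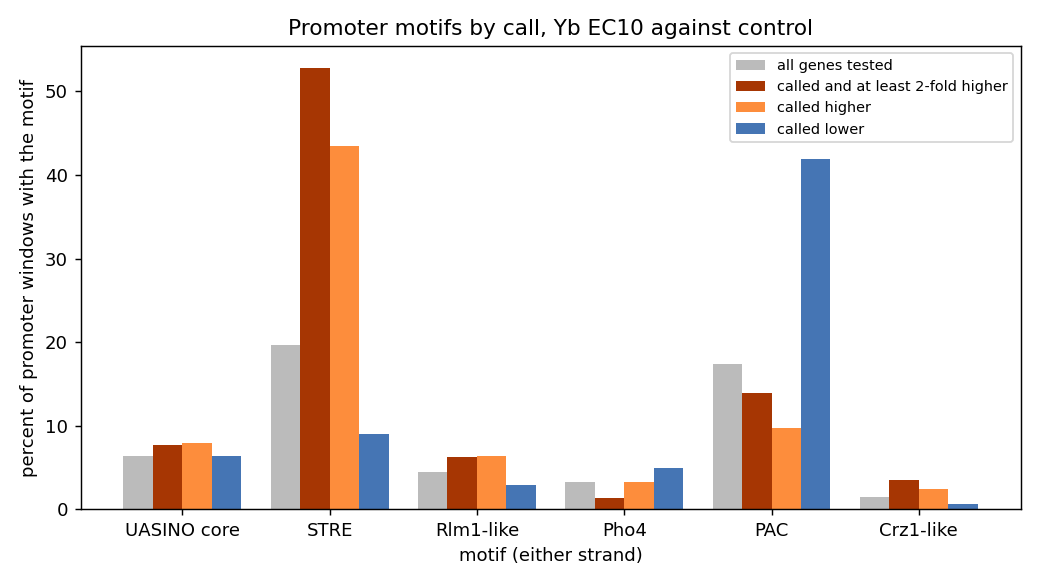
Percent of promoter windows (300 to 51 bases before the start codon) that hold each of 6 motifs on either strand, for all tested genes and for genes called at least 2-fold higher, higher or lower after Yb EC10. The STRE is in 52.8% of windows of at least 2-fold higher genes and 9.0% of lower ones, and PAC in 41.9% of lower and 9.68% of higher ones; the other 4 motifs are in at most 7.89% of any group.

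Ribosomal protein genes had fewer calls, and their number depended on the libraries used. Of 137, 51 were called lower (37.2%, against 14% of all genes) and none higher (median -0.24). The median was -0.39, -0.05 and -0.30 in libraries 7, 8 and 9. With equal totals 13 were called lower (454 over all genes), and after quantile normalization 8 (850 over all genes). That count was 32, 2 and 33 without control library 1, 2 and 3, and 5, 103 and 3 without Yb EC10 library 7, 8 and 9. RPL21A had 5053, 5263 and 4897 in the controls and 3611, 4464 and 3759.8 after Yb (-0.37 ± 0.09, adjusted p = 0.00519), and RPL11B changed by -0.39 ± 0.10; reads of such duplicated genes may be split between near-identical copies.

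Of 26 phosphate system genes, 10 were called lower (38.5%, against 14% of all genes) and 3 higher (11.5%, against 15.1%). The list's median was -0.23, and by library it was -0.37, -0.09 and -0.31 in libraries 7, 8 and 9. PHO84, the high-affinity phosphate transporter, had 21902, 25746 and 22093 in the controls and 14537, 16428 and 14066 after Yb (-0.63 ± 0.09, adjusted p = 7.94e-05). PHM6, a phosphate-starvation gene, fell from 1229, 988 and 992 to 412, 761 and 565 (-0.92 ± 0.19) and SPL2, which restrains low-affinity phosphate uptake, from 1042, 969.7 and 819 to 458, 618 and 604 (-0.76 ± 0.12). PHO84 was at similar levels in the 3 exposed libraries, whereas PHM6 was lowest in library 7 and highest in library 8. Outside the naming rule, the polyphosphate polymerase gene VTC4 fell by 0.39 ± 0.07 and the acid phosphatase gene PHO12 changed by -0.56 ± 0.13, while PHO5, the main secreted acid phosphatase, and PHO89, a sodium-phosphate cotransporter, were not called (-0.17 ± 0.16 and -0.23 ± 0.09). PHO12 is nearly identical to PHO11, so its level is uncertain. PHM7, a membrane protein gene, was 1 of the 3 that rose, from 45.6, 36.2 and 31.8 to 178, 89.1 and 138 (1.77 ± 0.23). The Pho4 site CACGTG, the same on both strands, was in 4.88% of windows of genes called lower and 3.30% of all.

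Of 24 genes of glycine, one-carbon and purine synthesis, 17 were called lower (70.8%, against 14% of all genes). Only 1 was called higher (4.17%, against 15.1%). The list's median was -0.33, and it was alike in the 3 libraries, at -0.33, -0.30 and -0.33. CHA1, the serine and threonine deaminase, had 415, 446 and 414 in the controls and 239, 229.6 and 216 after Yb (-0.89 ± 0.15, adjusted p = 0.000465). SHM2, the cytosolic serine hydroxymethyltransferase, had 4496, 5013 and 4924 and 3035, 3034 and 2923 (-0.68 ± 0.06, adjusted p = 2.33e-06). The folate enzyme gene MTD1 changed by -0.65 ± 0.08, the purine genes ADE17 and ADE6 by -0.59 ± 0.07 and -0.49 ± 0.08 and the glycine decarboxylase gene GCV2 by -0.49 ± 0.08. In CHA1, SHM2, MTD1 and ADE17, library 8 did not lie closest to control.

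Of 33 amino acid synthesis genes under Gcn4, 19 were called lower (57.6%, against 14% of all genes) and none higher (median -0.30). The number lower was 11 without control library 3 or Yb EC10 library 9 and 12 without Yb EC10 library 7. CPA1 of arginine synthesis had 996, 1111 and 1119 in the controls and 619, 776 and 633 after Yb (-0.67 ± 0.09), LYS20 of lysine synthesis changed by -0.61 ± 0.07, ARG1 by -0.59 ± 0.08 and HIS4 by -0.52 ± 0.05 (adjusted p between 5.15e-06 and 7.65e-05). GCN4 itself was not called (-0.05 ± 0.08, adjusted p = 0.655). Of 24 sulfate assimilation and methionine genes, 5 were lower (20.8%, against 14% of all genes) and 1 higher. Without 1 library 2 to 5 were lower (2 without control library 3 or Yb EC10 library 9, 3 without control library 2) and 0 to 4 higher (4 without control library 1, 0 without control library 2 or Yb EC10 library 9). The list had a median near 0 (0.00093) whose sign differed between alternatives; MET6, the methionine synthase, changed by -0.42 ± 0.08 and SAM1, an S-adenosylmethionine synthetase, by -0.42 ± 0.10.

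Mating genes were lower. Of 7 a-specific genes, 6 were called lower (85.7%, against 14% of all genes) and none higher (median -0.38). MFA1, an a-factor precursor gene, had 1840.0, 1626 and 1238 in the controls and 866, 1112 and 863 after Yb (-0.72 ± 0.13, adjusted p = 0.00103), and AGA2, the agglutinin subunit, 696, 756 and 703 and 420.4, 475 and 459.7 (-0.67 ± 0.08, adjusted p = 1.46e-05). The α-factor receptor gene STE2 changed by -0.38 ± 0.07, the protease gene BAR1 by -0.35 ± 0.08, MFA2 by -0.43 ± 0.11 and the exporter gene STE6 by -0.27 ± 0.07; ASG7 was not called (-0.08 ± 0.15). Of 17 pheromone response genes, 11 were lower (64.7%, against 14% of all genes) and none higher (median -0.37). Among the falls were the fusion gene PRM1 (-0.80 ± 0.24, not called without control library 2 or Yb EC10 library 8), AGA1 (-0.63 ± 0.11), the cell cycle arrest gene FAR1 (-0.59 ± 0.10) and SST2, which turns the signal off (-0.56 ± 0.09). No fall met the naming rule. The only called fall of at least 2-fold, named after its values were seen, was OAR1, of mitochondrial fatty acid synthesis, with 33.2, 44.7 and 44.1 in the controls and 19.1, 20.4 and 17.1 after Yb (-1.06 ± 0.22, adjusted p = 0.00282).

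**Figure D5:**
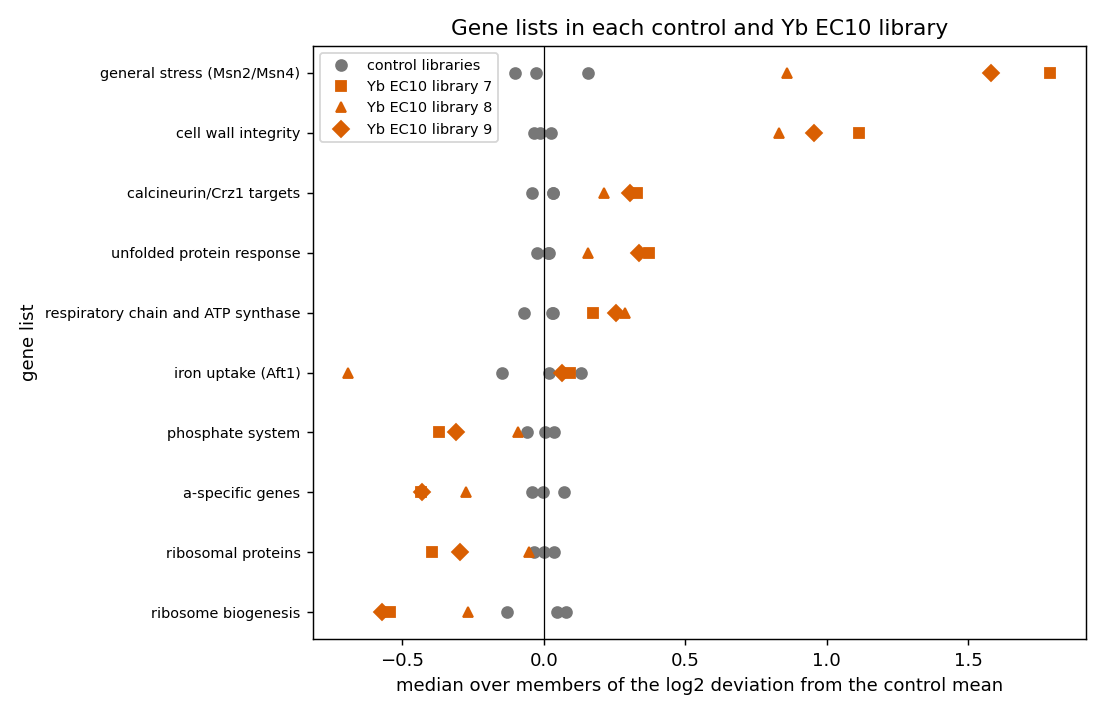
Median over the members of 10 gene lists of the log2 deviation from the control mean, 1 point per library, for the 3 control libraries and Yb EC10 libraries 7, 8 and 9. Of the Yb EC10 libraries, library 8 (triangle) lies nearest to control in every list but iron uptake and respiratory chain and ATP synthase. It is at 0.86 for general stress, 0.83 for cell wall integrity, -0.05 for ribosomal proteins and -0.27 for ribosome biogenesis. For iron uptake it lies alone (-0.69), and for respiratory chain and ATP synthase it is the highest (0.29).

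The Yb EC10 libraries were also set beside La EC10, which shares its labelled effect level but not its dose (50 µM against 6 µM). Of 5559 genes, 329 (5.92%) were called: 96 were higher in La EC10 (1.73%) and 233 lower (4.19%), by at least 2-fold for 4 (0.072%) and 64 (1.15%). The 145 genes called at least 2-fold higher after Yb EC10 were chosen with the same Yb EC10 libraries, so their difference from La EC10 is a description, and the p-values of genes named from the comparison with control share that choice. Of the 145, 79 were lower in La EC10 and 3 higher. INO1 was at 700.3, 728 and 743 in the La EC10 libraries, between control and Yb EC10 (log2 difference, La EC10 minus Yb EC10, -2.22 ± 0.11, adjusted p = 1.44e-08). HSP12 had 421, 184 and 391 there and TMA10 127, 101 and 138, values that overlap the controls. Of the 38 general stress genes, 22 were lower in La EC10 and 1 higher.

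Cell wall genes differed in both directions between the metals: of 31, 7 were lower in La EC10 than in Yb EC10 and 3 higher, against 4.19% and 1.73% of all genes, with a median difference of 0.0091. KDX1 had 1030.3, 1096 and 787 after La EC10, above its Yb EC10 values (0.67 ± 0.11, adjusted p = 0.00101), and CWP1 had 5931, 7490.2 and 5793 (0.59 ± 0.10, adjusted p = 0.00125). GSC2 had 517, 572 and 587, below Yb EC10 (-1.22 ± 0.09, adjusted p = 5.88e-07), and 6 of the 17 calcineurin targets were lower and none higher. SED1 was not called (0.14 ± 0.10, adjusted p = 0.479). Lower in La EC10 were 5 of the 7 a-specific genes, among them BAR1, with 1193, 1041 and 1218 (-0.90 ± 0.08, adjusted p = 2.09e-06). No ribosome biogenesis gene was called, with a median difference of 0.11.

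Raising Yb from 6 to 8 µM (EC50) gave few calls: 61 of 5559 genes (1.1%), 39 higher (0.702%) and 22 lower (0.396%), with 1078 genes at an unadjusted p under 0.05. The count depended on the libraries. It was 0 when only the libraries of these 2 groups were fitted, and between 0 and 541 when 1 library was left out, the highest without Yb EC10 library 7. INO1 rose further, to 6803, 5920.3 and 5308 at EC50 (0.82 ± 0.11, adjusted p = 0.0095). With only the libraries of these 2 groups it was not called. Of the 145 genes at least 2-fold higher at EC10, chosen with the same EC10 libraries, 16 were called higher at EC50 and none lower. HSP12 had 5034, 3994 and 3314 and was not called (0.92 ± 0.35, adjusted p = 0.164), nor was KDX1 (0.29 ± 0.11, adjusted p = 0.15). GSC2 was called, with 1942, 1743 and 1626 (0.45 ± 0.09, adjusted p = 0.0415), as were 6 of the 31 cell wall and 4 of the 17 calcineurin genes, all higher.

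The genes lower at EC50 than at EC10 were short: their median coding length was 450.0 bases, against 1245 over all genes. The named ones were CSN9, YDL085C-A, POP5, DAD2 and GIM4, with log2 differences of -1.83 ± 0.39, -1.56 ± 0.33, -1.33 ± 0.29, -1.30 ± 0.30 and -1.20 ± 0.27 (adjusted p between 0.0464 and 0.048). CSN9, a COP9 signalosome subunit, was at 263, 609.5 and 786 in Yb EC10 libraries 7, 8 and 9, at 472, 268 and 538 in the controls and at 111, 199.6 and 126 at EC50. Library 7 was the lowest of the 3 Yb EC10 libraries in each of these 5 genes, as it was for genes of up to 300 bases in general (-0.04 against 0.17 and 0.19). In Yb EC50 libraries 4, 5 and 6 the median deviation of genes of up to 300 bases was -0.17, -0.06 and -0.15. Each of these lay below all 3 Yb EC10 values, so short genes as a class were lower at EC50. The part of this length-related shift in the falls of the 5 genes was not tested. None of the 5 was called between Yb EC10 and control.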

How the data were processed

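RNA of 15 yeast libraries was sequenced after a strand-specific TruSeq preparation, per the labels' protocols. In the deposited table each value is a signal: the authors divided the counts of every gene by the size factor of the library. Their 5 columns of group means were left aside. The submitters' processing notes list, without saying what each did, HTSeq 0.6.1p1, DESeq2 1.14.1, TopHat2 2.1.1, FastQC 0.67 and build R64. Whether counting used the strand is not given in the sources used here, so overlapping antisense genes are uncertain. All deposited signal values (100% in each library) were multiples of what 1 read is worth, within a tolerance of 0.01, and whole reads were recovered from them. Where a library had 0 reads of a gene, up to 3 reads (2.70 to 3.67 normalized counts) remain possible, for counting error only. RefSeq R64 matched 5917 of 6600 identifiers and gave coordinates, coding lengths and promoter windows.

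The analysis used log2(normalized count + 1), a scale on which low genes appear to change less. Contrasts were 2-sided, from limma 3.58.1 in R 4.3.3 with a mean-variance trend and all 15 libraries in 1 fit. P-values were adjusted by Benjamini-Hochberg over 5559 genes, and an adjusted p under 0.05 was a call. With 3 against 3 libraries an exact permutation p cannot be under 0.10, and none was computed. No pair of replicates agreed within sampling noise, so none was merged. The fit was tested on simulated data with known changes.

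The members, gene lists and tests were chosen with earlier results of these data known. Genes were named by a rule: up to 15 rises and 15 falls by size, if called, changed at least 2-fold, averaging at least 50 in the higher group and without overlap between groups; up to 4 called members of each list; every marker; and 5 genes per direction in the other comparisons. The result of 1 gene is not reported here. Alternatives were a pseudocount of 5, no filter, a minimum mean of 50, equal totals, quantile normalization, a fit to the 2 groups alone, edgeR 4.0.16 (quasi-likelihood) and DESeq2 1.42.0 on whole reads, and leaving out each library.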

Additional observations from a re-analysis of the deposited data

Results flagged for a closer look

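Each of the 14 reported genes of the 15 largest rises after Yb EC10 was also called in the comparison of La EC10 with Yb EC10 (limma, Benjamini-Hochberg adjusted p). They were chosen with the same Yb EC10 libraries, so the differences are given as values. As log2 differences, La EC10 minus Yb EC10, they were -2.22 ± 0.11 for INO1, -3.22 ± 0.28 for CPP3, -4.70 ± 0.56 for RGI2, -3.63 ± 0.27 for TMA10, -3.13 ± 0.33 for YPT53, -2.57 ± 0.20 for RTC3 and -2.77 ± 0.35 for HSP12. They were -3.28 ± 0.38 for HXT5, -2.70 ± 0.25 for BDH2, -2.75 ± 0.27 for NQM1, -3.77 ± 0.46 for SPG4, -1.71 ± 0.30 for STF2, -1.68 ± 0.26 for XBP1 and -2.18 ± 0.26 for MPC3. In all 14 genes the 3 La EC10 libraries lay below the 3 Yb EC10 libraries.

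Higher in La EC10 than in Yb EC10 by at least 2-fold were 4 genes: YOR387C by 1.52 ± 0.37, VEL1 by 1.42 ± 0.38, the alcohol dehydrogenase gene ADH4 by 1.03 ± 0.27 and the reductase gene FRE4 by 1.02 ± 0.28 (adjusted p between 0.0207 and 0.0397). None was called between Yb EC10 and control. Library 8 held the lowest Yb EC10 value in each: YOR387C had 3359, 1188 and 3496 in libraries 7, 8 and 9, VEL1 3909.7, 1197 and 3406, ADH4 7941, 3336 and 8722 and FRE4 75.3, 26.8 and 55.7. Without library 8 the differences were 1.01, 0.89, 0.59 and 0.61 for YOR387C, VEL1, ADH4 and FRE4, and none was called (adjusted p = 0.0603, 0.101, 0.0709 and 0.105). None of the 4 was called either without La EC10 library 13 or 15. YOR387C and VEL1 are near-identical copies, so reads may be split between them. With only the libraries of the 2 groups in the fit, the adjusted p was 0.117 to 0.162.

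Between Yb EC50 and Yb EC10, INO1 was higher at EC50 by 0.82 ± 0.11. This call was lost at least in the 3 fits where no gene was called. They were the fit to the 2 groups alone and those without Yb EC50 library 5 or Yb EC10 library 8. Of the 22 genes called lower at EC50, the 5 named were short, and the part of the length-related shift in their falls was not tested. Their log2 differences were -1.83 ± 0.39 for CSN9, -1.56 ± 0.33 for YDL085C-A, -1.33 ± 0.29 for POP5, -1.30 ± 0.30 for DAD2 and -1.20 ± 0.27 for GIM4. The calls of these 5 genes were lost without a filter (limma, adjusted p = 0.0503 to 0.0588) and with the 2 groups alone (0.127 to 0.134). They were also lost without Yb EC50 library 4, 5 or 6 and without Yb EC10 library 8 or 9 (0.0694 to 0.217).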

How the results depend on the processing

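No paired analysis was possible because the table's columns carry running numbers and not the replicate numbers of the labels. For Yb EC10 against control, the count of 1623 called genes ranged from 986 (without Yb EC10 library 9) to 1816 (without library 8) when 1 library was left out. It was 1173 with the libraries of the 2 groups alone, 1597 in edgeR, 1525 in DESeq2 and 1511 to 1625 under the other alternatives. Of 144 called genes picked by the naming rule or after their values were seen, 119 were called under every alternative, and 25 were not: DER1, ERG13, FPR2, FTR1, GRE1, HAC1, HIS3, HSP104, IDP2, JEN1, MET8, MMP1, MPD1, PDR10, PRM1, RIM20, RPL11A, RPL11B, RPL9A, SAG1, SPO11, SSE2, VID24, ZIP1 and ZRC1. No named gene changed its direction while called, but the medians of some gene lists changed sign. For Yb EC50 against Yb EC10, the 61 calls, 10 of at least 2-fold, became 25 and 2 without a filter, 203 and 29 with equal totals, 142 and 24 with quantile normalization, 0 and 0 with the libraries of the 2 groups alone, 176 and 41 in edgeR and 309 and 51 in DESeq2. Leaving out 1 library gave 0 (without Yb EC50 library 5 or Yb EC10 library 8) to 541 calls (without Yb EC10 library 7) and 0 to 100 of at least 2-fold in that comparison. For La EC10 against Yb EC10, the 329 calls became 142 with the libraries of the 2 groups alone and 220 to 359 when 1 library was left out. The causes were not tested, except that a fit to fewer libraries has fewer degrees of freedom by construction. Depth limited the genes with few control reads, such as CPP3, RGI2 and YPT53.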
